A study of Mus musculus with 9 samples.

Results

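The genes described here are 8 genes of the neural crest and its glial branch, *Sox10*, *Foxd3*, *Erbb3*, *Fabp7*, *Cdh19*, *Mbp*, *S100b* and *Ngfr*, chosen by name out of 19369 genes measured in the developing mouse eye. RNA-Seq was performed on 9 samples of C57BL/6 embryos, 3 at each of 3 stages. The E10.5 samples held periocular neural crest (pNC), the mesenchyme around the early eye. Dispase was used at this stage to free it of surface ectoderm and lens vesicle, and the optic cup was discarded as well. The E14.5 and E16.5 samples held dissected cornea, which at these stages includes epithelium as well as crest-derived mesenchyme. Each sample pooled the tissue of several eyes, and no genotype or treatment separated the groups, so stage and tissue change together and cannot be told apart. Every sample was therefore a mixture of the cell types in its dissected tissue.

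Neural crest cells leave the neural tube and give rise to many cell types, among them the glia of peripheral nerves. Schwann cell precursors travel along growing axons and depend on neuregulin-1, which axons present and which they sense through a receptor made of ErbB3 and ErbB2. The cornea becomes densely innervated by sensory axons of the trigeminal ganglion, and Schwann cells enter the cornea with these axons. Immature Schwann cells carry the neurotrophin receptor p75 and S100 protein, and those that myelinate make myelin basic protein.

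Expression is given as FPKM, the fragments of a gene scaled to its transcript length and to the size of the library, for each sample and as the mean ± SD of 3 samples. Fold changes and tests were computed with edgeR on the expected counts, and a gene was called when its Benjamini-Hochberg adjusted p was under 0.05 and its absolute log2 fold change at least 1. Each library held between 8745161 and 9069023 expected counts. The E14.5 replicate 1 sample stood apart in its epithelial marker RNA, with a summed FPKM of surface epithelium markers of 2130 against 659 and 782 in the other E14.5 samples. Keratin genes led this gap. *Krt12* was at 102 FPKM against 0.62 and 2.06, whereas *Epcam* was at 41.4 against 38.0 and 36.5. The E10.5 replicate 3 sample held less of the optic cup markers, 11.1 against 31.4 and 35.1. Leaving out the E14.5 sample changed no call of a member, and leaving out the E10.5 sample ended only the call of *Cdh19* between E16.5 and E10.5.

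The 8 genes did not move as a single glial group. Between E10.5 pNC and E14.5 cornea, 5 of the 7 members that could be tested fell and 0 rose, while 21.6% of the 14771 genes tested were called in either direction, 13.6% higher and 7.97% lower. Between E10.5 pNC and E16.5 cornea, the members called were again *Sox10*, *Foxd3*, *Fabp7*, *Cdh19* and *Ngfr*, all lower, and in addition *Erbb3* and *Mbp*, both higher, where 34.8% of genes tested were called, 19.4% higher and 15.4% lower. Between E14.5 and E16.5 corneas, *Erbb3* and *Mbp* rose and 0 members fell, where 11.7% of genes were called, 6.26% higher and 5.47% lower. The median log2 fold change of the tested members was -1.80, -1.34 and 0.48 in these 3 comparisons, beside 0.01, 0.00 and -0.02 over all genes tested. *S100b* was the member that did not pass the filter on low counts. The first 2 comparisons share the same E10.5 samples. In bulk tissue, fewer cells of a type and less RNA per cell cannot be told apart.

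**Figure D1:**
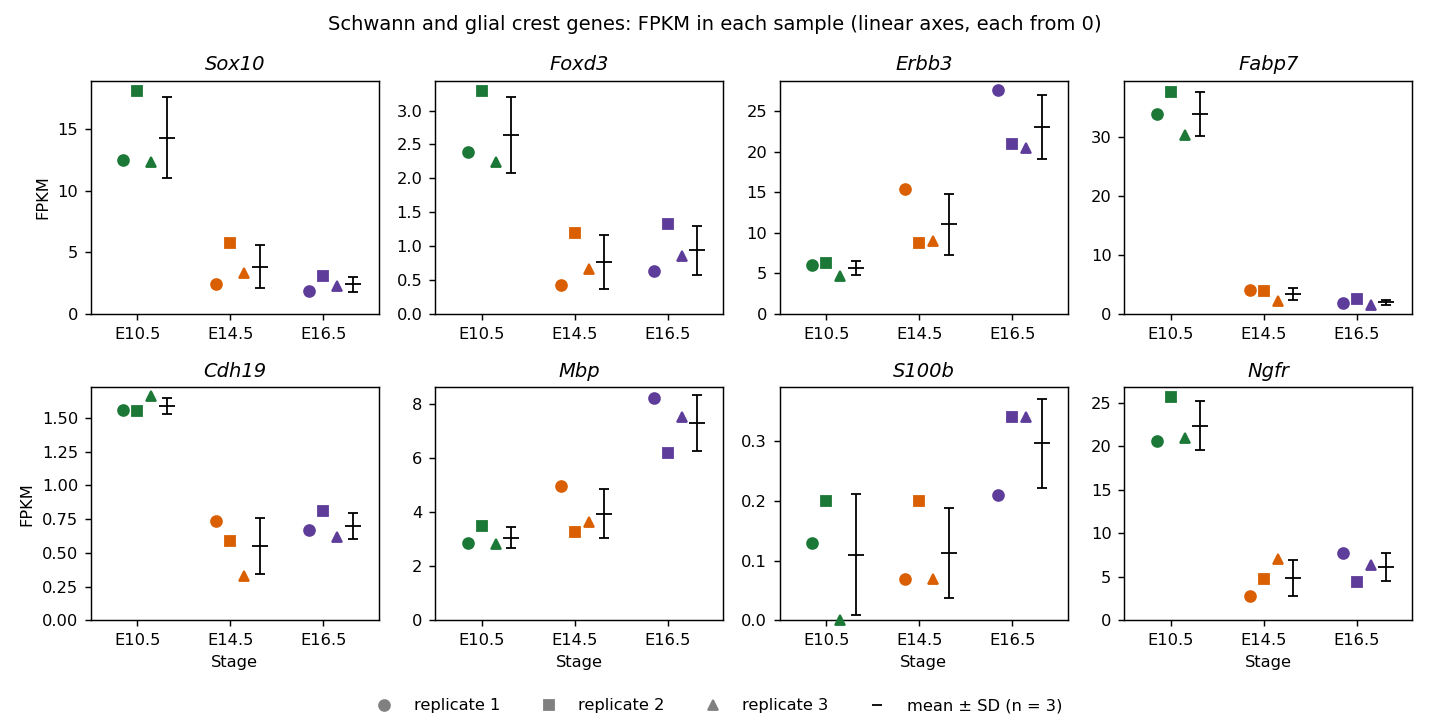
FPKM of the 8 genes (y axes, linear and each starting at 0) in the 9 samples by stage (x axes), with a point per sample and a black bar for the mean ± SD of 3 samples. *Sox10*, *Foxd3*, *Fabp7*, *Cdh19* and *Ngfr* are highest in the 3 pNC samples, *Erbb3* and *Mbp* are highest in the 3 E16.5 corneas, and *S100b* does not exceed 0.34 in any sample.

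*Sox10* encodes the SoxE transcription factor that maintains crest cells and is needed for all peripheral glia. The gene lies on chromosome 15 (GRCm38, chr15:79154913-79164490). Its FPKM in the 3 pNC samples was 12.5, 18.1 and 12.3, in the E14.5 corneas 2.43, 5.76 and 3.33, and in the E16.5 corneas 1.89, 3.04 and 2.28. Every pNC sample was above every cornea, and the E14.5 and E16.5 corneas overlapped. The stage means were 14.3 ± 3.27, 3.84 ± 1.72 and 2.40 ± 0.585. Against pNC, *Sox10* was 3.76-fold lower at E14.5 (log2 fold change -1.91, SE 0.28, edgeR adjusted p = 0.00025) and 5.35-fold lower at E16.5 (-2.42, SE 0.30, edgeR adjusted p = 3e-05). The difference between the corneal stages, -0.51 with an SE of 0.31, did not pass the test (edgeR adjusted p = 0.234).

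*Foxd3* encodes a forkhead factor of early crest and glial precursors that holds back the melanocyte fate. It lies on chromosome 4 (GRCm38, chr4:99656299-99658671). Its level was low throughout, at 2.39, 3.29 and 2.24 FPKM in pNC, 0.43, 1.20 and 0.66 at E14.5, and 0.63, 1.33 and 0.85 at E16.5. The pNC samples again lay above all 6 corneas, which overlapped between stages. The gene was 3.48-fold lower at E14.5 (log2 fold change -1.80, SE 0.37, edgeR adjusted p = 0.00203) and 2.53-fold lower at E16.5 (-1.34, SE 0.36, edgeR adjusted p = 0.00689). These values rest on 9 to 28 expected counts in each cornea. Of its annotated exon, 89 bases are shared with the small RNA gene *Gm23366*, so reads there could have been assigned to either gene. None of the other members shares exon bases with another gene.

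*Sox10* and *Foxd3* were both highest in the replicate 2 sample at all 3 stages. The ratio of their FPKM values was 5.24, 5.49 and 5.49 in pNC, 5.65, 4.8 and 5.05 in E14.5 corneas, and 3.0, 2.29 and 2.68 in E16.5 corneas. Thus the ratio overlapped between pNC and E14.5 and was lower in all 3 E16.5 samples. The log2 difference was -0.07 between E14.5 and pNC, -1.03 between E16.5 and pNC and -0.97 between the corneal stages. By exact 2-sided permutation tests the p was 0.4, 0.1 and 0.1, or 0.4, 0.15 and 0.15 after Benjamini-Hochberg adjustment over the 6 ratio comparisons made, where 3 against 3 samples cannot give less than 0.1, so none passed. The ratio was chosen after the values had been seen.

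*Fabp7* encodes brain lipid-binding protein, a fatty acid carrier of radial glia and of Schwann cell precursors. It was the most abundant member in pNC per transcript length, at 33.8, 37.6 and 30.3 FPKM. The corneas held 4.02, 3.85 and 2.13 at E14.5 and 1.86, 2.45 and 1.53 at E16.5. The pNC samples stood well apart from every cornea, and the corneal stages overlapped. With stage means of 33.9 ± 3.69, 3.33 ± 1.05 and 1.95 ± 0.466, *Fabp7* showed the largest fall of the members, 10.3-fold at E14.5 (log2 fold change -3.36, SE 0.23, edgeR adjusted p = 1.1e-06) and 15.6-fold at E16.5 (-3.96, SE 0.24, edgeR adjusted p = 2.9e-07). The further difference between corneal stages was -0.60 (SE 0.30, edgeR adjusted p = 0.138) and did not pass.

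*Cdh19* encodes a cadherin best known from Schwann cell precursors. The 3 pNC samples were close together at 1.56, 1.55 and 1.66 FPKM, against 0.74, 0.59 and 0.33 at E14.5 and 0.67, 0.81 and 0.62 at E16.5. All corneas lay below all pNC samples and overlapped between stages. At this level the gene was represented by 43 to 45 expected counts in each pNC sample and 9 to 22 in each cornea. It was 2.89-fold lower at E14.5 (log2 fold change -1.53, SE 0.28, edgeR adjusted p = 0.00102). At E16.5 it was 2.03-fold lower (-1.02, SE 0.28, edgeR adjusted p = 0.00652), only just past the fold minimum, and the call was lost without E10.5 replicate 3 (-1.0), E16.5 replicate 1 (-0.98) or E16.5 replicate 3 (-0.94).

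*Ngfr* encodes p75, the neurotrophin receptor carried by migrating crest and immature Schwann cells. Its FPKM was 20.6, 25.6 and 20.9 in pNC, 2.84, 4.81 and 7.02 at E14.5, and 7.70, 4.45 and 6.31 at E16.5. The pNC samples were the 3 highest, and the corneal stages overlapped. The receptor gene was 4.6-fold lower at E14.5 (log2 fold change -2.20, SE 0.28, edgeR adjusted p = 8.2e-05) and 3.29-fold lower at E16.5 (-1.72, SE 0.27, edgeR adjusted p = 0.00019). Between corneal stages the difference was 0.48 (SE 0.29, edgeR adjusted p = 0.217). Unlike *Fabp7*, *Ngfr* kept a mean of 6.15 ± 1.63 FPKM at E16.5, which was above that of *Sox10*.

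Promoter sequences were read from the RefSeq promoter table of GRCm38.p6 for 4 of the 8 members. Those of *Fabp7* (chr10:57784673-57784922, plus strand), *Foxd3* (chr4:99656049-99656298, plus strand) and *Ngfr* (chr11:95587699-95587948, minus strand) are shown because these genes fell together. Each is the 250 bases before the annotated start, written 5′ to 3′ on the strand of the gene. Capitals mark matches, on either strand, to the SOX core, the E-box or the GC box. Searches for the SOX core covered ACAAAG and the forms of it that have T in place of its first A, of its last A or of both. The E-box was searched as CACGTG. For the GC box the letters were GGGCGG.
Fabp7: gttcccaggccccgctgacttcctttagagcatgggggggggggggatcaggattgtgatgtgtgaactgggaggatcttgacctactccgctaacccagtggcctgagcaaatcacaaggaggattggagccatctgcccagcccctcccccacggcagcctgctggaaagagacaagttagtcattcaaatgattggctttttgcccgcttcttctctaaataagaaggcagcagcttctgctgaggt
Foxd3: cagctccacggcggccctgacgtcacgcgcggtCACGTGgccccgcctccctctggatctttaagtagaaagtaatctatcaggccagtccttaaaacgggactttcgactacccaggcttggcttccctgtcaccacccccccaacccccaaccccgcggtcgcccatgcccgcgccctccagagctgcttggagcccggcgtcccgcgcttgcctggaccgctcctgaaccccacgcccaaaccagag
Ngfr: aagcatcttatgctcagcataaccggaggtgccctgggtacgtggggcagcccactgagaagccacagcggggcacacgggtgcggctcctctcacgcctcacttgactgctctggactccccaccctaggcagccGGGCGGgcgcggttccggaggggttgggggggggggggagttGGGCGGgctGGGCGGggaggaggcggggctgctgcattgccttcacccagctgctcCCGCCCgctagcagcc
The *Fabp7* window held 0 matches, the *Foxd3* window 1 E-box and the *Ngfr* window 4 GC boxes, and no base belonged to more than 1 match. The window of *S100b* (chr10:76253586-76253835, plus strand) held a single SOX core, TCAATG. Of all 32851 promoters in the table, 39.4% held a SOX core, 6.02% the E-box and 32.7% the GC box. The E-box and the GC box were chosen after the sequences had been seen. A match is a run of letters and not a measured binding site, and a window with 0 matches says only that these letters are not in it.

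*Erbb3*, the neuregulin receptor gene of Schwann cell precursors, went the opposite way from *Sox10*. It lies on chromosome 10 (GRCm38, chr10:128567523-128589635). The pNC samples held 6.10, 6.32 and 4.67 FPKM, the E14.5 corneas 15.4, 8.73 and 9.02, and the E16.5 corneas 27.6, 21.0 and 20.5. No stages overlapped, and the order was pNC, E14.5, E16.5, with means of 5.70 ± 0.896, 11.1 ± 3.79 and 23.0 ± 3.96. At E14.5 the gene was 1.92-fold higher than in pNC (log2 fold change 0.94, SE 0.22, edgeR adjusted p = 0.00401), which is under the fold minimum and so no call. At E16.5 it was 4.47-fold higher than in pNC (2.16, SE 0.22, edgeR adjusted p = 7.2e-06) and 2.33-fold higher than at E14.5 (1.22, SE 0.21, edgeR adjusted p = 0.00185). The E14.5 difference depended on the samples entered, being 0.63 without E14.5 replicate 1 and past the fold minimum without E10.5 replicate 2 (1.01), E14.5 replicate 2 (1.09) or E14.5 replicate 3 (1.05).

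The summed RNA of surface epithelium markers moved with *Erbb3*. The summed FPKM of 8 surface epithelium markers ran from 33.2 to 44.5 in pNC, from 659 to 2130 at E14.5 and from 5270 to 7620 at E16.5, and all 8 markers were higher at both corneal stages than in pNC. The keratin gene *Krt5* alone reached a mean of 2380 ± 447 FPKM at E16.5. Keratin genes made up most of the sum, which is therefore no measure of the amount of epithelium. From E14.5 to E16.5 *Epcam* fell from 38.6 to 25.6 FPKM (log2 fold change -0.43) without a call. *Trp63* (0.76) and *Cdh1* (0.73, but 1.0 and a call without E14.5 replicate 1) rose without a call. *Pax6* was called higher (1.08, but 0.95 and no call without E14.5 replicate 2). Within each corneal stage, replicate 1 was highest for both the marker sum and *Erbb3*. The part of epithelium in the rise of *Erbb3* was not tested.

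*Mbp* encodes myelin basic protein, and its locus also produces golli transcripts outside myelin that are counted under the same identifier. Its FPKM was 2.87, 3.49 and 2.81 in pNC, 4.95, 3.26 and 3.63 at E14.5, and 8.20, 6.17 and 7.50 at E16.5. All 3 E16.5 corneas were above the other 6 samples, whereas pNC and E14.5 overlapped. Within each corneal stage *Mbp* was highest in replicate 1, as were *Erbb3* and the epithelial marker sum. The part of epithelium in the rise of *Mbp* was not tested. The means were 3.06 ± 0.376, 3.95 ± 0.888 and 7.29 ± 1.03. At E14.5 the gene differed from pNC by 0.46 (SE 0.18, edgeR adjusted p = 0.0451), under the fold minimum. At E16.5 it was 2.77-fold higher than in pNC (log2 fold change 1.47, SE 0.17, edgeR adjusted p = 2.3e-05). Against E14.5 it was 2.01-fold higher (1.0, SE 0.17, edgeR adjusted p = 0.00176), a call that lies at the fold minimum and was lost when E14.5 replicate 2 (0.88), E14.5 replicate 3 (0.97), E16.5 replicate 1 (0.91) or E16.5 replicate 3 (0.99) was left out, or when libraries were scaled by their totals (0.84). The gene length that RSEM assigned to *Mbp* ran from 4161 to 4562 bases in pNC, from 4709 to 4740 at E14.5 and from 4546 to 4628 at E16.5. Which transcripts were present was not analyzed.

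*S100b* encodes a calcium-binding protein used as a marker of differentiated Schwann cells. It was listed at 0.13, 0.20 and 0 FPKM in pNC, 0.07, 0.20 and 0.07 at E14.5, and 0.21, 0.34 and 0.34 at E16.5. These values come from 5.0, 5.0 and 13.0 expected counts in all over the 3 samples of each stage. The E16.5 values lay above the others, the nearest being 0.21 against 0.20. The gene did not pass the count filter and did not enter the test, so whether it differed between stages was not determined at these counts.

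The gene whose profile came closest to that of *Sox10* over the 9 samples was not a member. By Euclidean distance of centered log2(FPKM + 1) values, among genes with a mean of at least 1 FPKM in some stage, the 5 nearest were *Foxl1* (0.453), *Angpt1* (0.622), *Zbtb46* (0.635), *Foxp4* (0.675) and *Gfpt2* (0.676). *Foxl1* had means of 4.33, 0.89 and 0.397 FPKM at the 3 stages, and *Angpt1*, which encodes a ligand of the endothelial receptor Tie2, 3.99, 0.32 and 0.0633. Among the members, *Ngfr* came 890th at a distance of 1.51, *Foxd3* 1013th at 1.55, *Cdh19* 2956th at 2.14 and *Fabp7* 2990th at 2.15. *Mbp* and *Erbb3* were far down the order, at 4.13 and 5.15. Adding 1 before the logarithm shrinks the changes of genes at low FPKM. The ranks of *Foxd3* and *Cdh19* therefore reflect their low level as well as their pattern. The same holds for the closeness of *Foxl1* and *Angpt1*, whose corneal means lie under 1 FPKM, beside 3.84 and 2.40 for *Sox10*. These distances do not rank genes by likeness of fold change.

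The SoxE family, to which *Sox10* belongs, fell together. *Sox9*, a factor of early crest and cartilage, had 12.7, 14.7 and 13.4 FPKM in pNC, 2.57, 2.12 and 1.85 at E14.5, and 2.58, 1.52 and 2.0 at E16.5. *Sox8* had 2.96, 2.45 and 2.94 in pNC, and 0.98, 0.83 and 0.67 and then 0.65, 0.30 and 0.49 in the corneas. All 3 genes were called lower at both corneal stages, with *Sox9* at -2.66 and -2.60 (SE 0.17 each, edgeR adjusted p = 7.5e-07 and 4.2e-07) and *Sox8* at -1.76 and -2.39 (SE 0.25 and 0.27, edgeR adjusted p = 0.0002 and 1.8e-05). None of the 3 differed between E14.5 and E16.5 by the call.

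The other genes of Schwann cell precursors and immature Schwann cells were split. Of 13 listed besides the members, 12 were tested, of which 3 were higher, 3 lower and 6 not called at E14.5 against pNC (median log2 fold change -0.44), and 6 higher, 3 lower and 3 not called at E16.5 (median 0.60). *Ednrb*, the endothelin receptor gene of crest and melanoblasts, rose from 7.12 ± 0.505 FPKM in pNC to 32.4 ± 5.26 at E14.5 (log2 fold change 2.17, SE 0.11, edgeR adjusted p = 1.8e-07) and had come down to 14.2 ± 0.887 by E16.5 (-1.07 against E14.5, SE 0.10, edgeR adjusted p = 0.00027, and -0.96 without E14.5 replicate 1). *Ncam1*, a neural cell adhesion gene, had means of 7.75, 31.9 and 15.7 FPKM and was called higher at both corneal stages. *Tfap2a*, an AP-2 factor of crest and surface ectoderm, rose from 9.65 ± 0.955 to 29.2 ± 2.97 and 28.8 ± 3.18. None of these 3 genes is restricted to glia. Also called higher at E16.5 than in pNC were *Gfra3* (log2 fold change 1.52), *L1cam* (1.49) and *Lgi4* (1.14, but 1.0 and no call without E10.5 replicate 3). These genes were called higher than at E14.5 as well. *Cdh2* was called lower than pNC at E16.5 (-2.29), as were *Sox2* and *Pax3*. The genes from *Gfra3* to *Cdh2* were picked for mention after their values were seen. The precursor factors *Sox2* and *Pax3*, which were picked for mention after their values were seen, fell to 0.0767 ± 0.0231 and 0.617 ± 0.414 FPKM at E14.5 from 7.43 ± 3.69 and 7.75 ± 2.49 in pNC. *Sox2* was lowest in E10.5 replicate 3 (3.73 against 7.46 and 11.1 FPKM), the pNC sample with the lowest sum of optic cup markers. The part of optic cup tissue in the fall of *Sox2* was not tested.

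Among the genes of Schwann cell differentiation and myelin, 18 were listed besides *Mbp* and 11 could be tested. At E14.5 against pNC, 4 were higher, 1 lower and 6 not called (median log2 fold change 0.56), and at E16.5 5 were higher, 1 lower and 5 not called (median 0.27). Between the corneal stages 2 were higher, 1 lower and 8 not called. The lower gene was the myelin regulator *Egr2* (-3.50, SE 1.24, edgeR adjusted p = 0.0493), whose call was lost in 7 of the 9 fits that left out a sample (edgeR adjusted p from 0.058 to 0.24). Against pNC at E16.5, *Egr2* became a further lower call (-2.94) without E14.5 replicate 1, making 2. *Pmp22*, a peripheral myelin protein gene that fibroblasts and epithelia also express, rose from 13.8 ± 2.26 FPKM in pNC to 31.8 ± 5.33 (log2 fold change 1.18, SE 0.13, edgeR adjusted p = 4e-05) and 55.6 ± 1.54 (2.15, SE 0.13, edgeR adjusted p = 3.2e-07). *Mal*, a raft proteolipid gene of myelin and of epithelial apical membranes, had 0.08, 0.21 and 0.16 FPKM in pNC, 17.3, 5.11 and 5.0 at E14.5, and 72.9, 40.0 and 46.4 at E16.5. *Pllp*, which encodes plasmolipin, rose from 0.443 ± 0.405 at E14.5 to 2.81 ± 0.906 at E16.5 (2.81, SE 0.51, edgeR adjusted p = 0.00242). Replicate 1 of each corneal stage was highest for *Mal* and *Pllp*, as it was for the epithelial markers, *Erbb3* and *Mbp*. The connexin gene *Gjb1* of myelinating Schwann cells was listed at 0 in 8 of the 9 samples, and *Egr2* did not exceed a stage mean of 0.843 FPKM.

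In the dissected tissue, RNA of the main ligand gene of ErbB3 was lower at E16.5 than in pNC, and RNA of its receptor gene was higher. *Nrg1*, which encodes the axonal signal to Schwann cells, had 2.6, 2.2 and 1.83 FPKM in pNC, 0.11, 0.05 and 0.21 at E14.5, and 0.05, 0.32 and 0.16 at E16.5. It was called lower at both corneal stages (log2 fold change -4.08 and -3.43, SE 0.49 and 0.46, edgeR adjusted p = 6.1e-05 and 6.2e-05). *Nrg3* and *Nrg4* were not called in any comparison and *Nrg2* was not tested. RNA of the dissected tissue does not measure the neuregulin-1 that axons of the trigeminal ganglion present.

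The partner receptor *Erbb2* rose with *Erbb3*, from 17, 16 and 11.6 FPKM in pNC to 43.4, 26.1 and 31.1 at E14.5 and 52.7, 49.7 and 49.5 at E16.5, without overlap between stages. Its log2 fold changes against pNC were 1.16 (SE 0.18, edgeR adjusted p = 0.00035) and 1.92 (SE 0.19, edgeR adjusted p = 5.1e-06), and the first was under the fold minimum without E14.5 replicate 1 (0.94). *Egfr*, the epidermal growth factor receptor gene, rose from 3.56 ± 0.755 FPKM to 39.0 ± 2.90 and 29.0 ± 1.82. *Erbb4* was low, with means of 0.137, 0.617 and 0.807 FPKM, and was called higher than pNC at E16.5 (2.65, SE 0.82, edgeR adjusted p = 0.0136). Its value at E14.5 was 2.11 (SE 0.84, edgeR adjusted p = 0.0529). The E16.5 call was lost without E10.5 replicate 3 (2.27) or E16.5 replicate 1 (2.22), and the E14.5 value became a call without E14.5 replicate 2 (2.61). Besides *Erbb3*, 2 of the 6 tested genes of this family rose and 1 fell at E14.5, while 3 rose and 1 fell at E16.5. Without E14.5 replicate 1, 1 of them rose at E14.5.

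**Figure D2:**
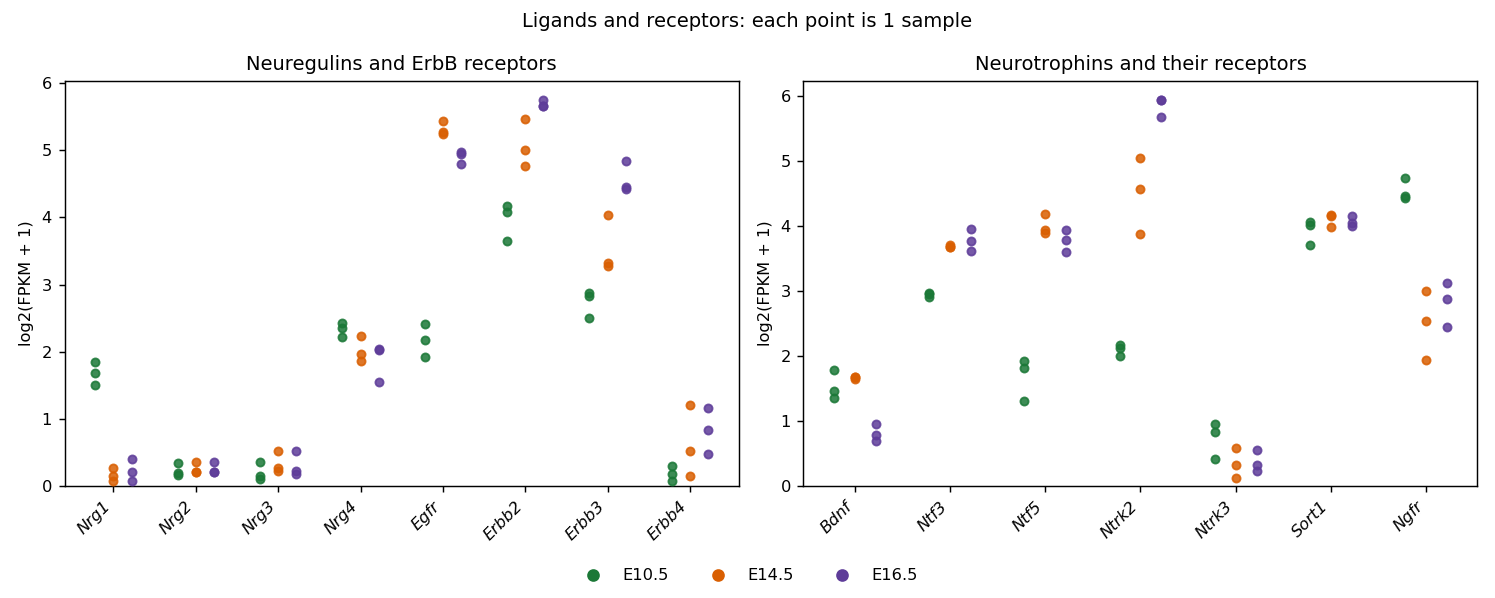
Log2(FPKM + 1) (y axes) of the neuregulin and ErbB genes and of the named neurotrophin and receptor genes (x axes), with 1 point per sample in green for E10.5, orange for E14.5 and purple for E16.5. *Nrg1* and *Ngfr* are highest in pNC, and *Erbb2*, *Erbb3*, *Egfr*, *Ntf5* and *Ntrk2* are higher in all 6 corneas than in pNC.

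Neurotrophin genes were split. *Ntf5*, the gene of neurotrophin 4/5, rose from 2.26 ± 0.684 FPKM in pNC to 15.1 ± 1.81 at E14.5 (log2 fold change 2.72, SE 0.20, edgeR adjusted p = 2e-06) and 12.8 ± 1.60 at E16.5 (2.64, SE 0.20, edgeR adjusted p = 1e-06). *Ntf3* rose past the fold minimum at E16.5 (1.08, SE 0.13, edgeR adjusted p = 3.3e-05), the value at E14.5 being 0.79 (SE 0.14, edgeR adjusted p = 0.00058), and was at 0.99 without E16.5 replicate 1. *Bdnf* was lower at E16.5 than in pNC (-1.17, SE 0.23, edgeR adjusted p = 0.001) and than at E14.5 (-1.33, SE 0.23, edgeR adjusted p = 0.00206), the former being -0.97 without E10.5 replicate 3.

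Of the Trk receptors, which signal beside p75, *Ntrk2* rose from 3.51, 3.34 and 3.02 FPKM to 31.8, 13.7 and 22.7 and then 49.9, 60.2 and 60.1 (log2 fold change 3.10 and 4.58 against pNC, SE 0.26 and 0.27, edgeR adjusted p = 5e-06 and 2.4e-07). *Ntrk3* was called lower at E14.5 only when E10.5 replicate 3 (-1.66) or E14.5 replicate 1 (-2.02) was left out. *Sort1*, which is on the same list but is not a Trk receptor gene, was not called in any comparison. Over the 8 tested genes besides *Ngfr*, 3 rose and 1 fell at E14.5, while 4 rose and 2 fell at E16.5.

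Markers of other cell types that carry some of the 8 genes changed as well, and their part in the results was not tested. Neuron markers had a summed FPKM of 206 to 316 in pNC, 5.09 to 5.89 at E14.5 and 3.0 to 3.71 at E16.5, and 13 of the 14 tested were lower at each corneal stage. *Tubb3*, the neuronal tubulin gene, fell from 104 ± 28.4 to 1.08 ± 0.727 and 0.260 FPKM, *Nefm* from 41.3 to 0.173 and 0.187, *Nefl* from 36.6 to 0.0967 and 0.113, and *Stmn2* from 29.4 to 0.280 and 0.120, while *Neurog1* was at 0 in all 6 corneas. *Sox10*, *Fabp7*, *Erbb3* and *Ngfr* are also expressed in the glia of sensory ganglia.

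Optic cup and neural retina markers summed to 11.1 to 35.1 FPKM in pNC, 6.72 to 9.54 at E14.5 and 4.76 to 6.47 at E16.5, and *Lhx2*, *Vax2* and *Six6* were the 3 of 5 tested that were lower at each corneal stage, *Vax2* losing its call without any of 4 single samples in either comparison. Without E14.5 replicate 1 more genes of this list passed the count filter, and 5 of 8 were lower at E14.5 and 6 of 8 at E16.5. Melanoblast markers summed to 56.0 to 64.7 in pNC, 66.5 to 119 at E14.5 and 33.5 to 34.7 at E16.5. Of these 9 genes, 3 were higher at E14.5, among them *Dct* (log2 fold change 1.55, SE 0.31, edgeR adjusted p = 0.00172) and *Mlana* (2.32, SE 0.63, edgeR adjusted p = 0.00938), and 3 were lower at E16.5 than in pNC, including *Pmel* (-0.95 without E10.5 replicate 1) and *Mitf* (-0.93 without E10.5 replicate 2). At E14.5 against pNC 0 of the 9 were called lower, and at E16.5 against E14.5 4 were. *Sox10* and *Ednrb* are also expressed in melanoblasts, whose part in the changes of these genes was not tested.

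The genes listed as central glia markers were low in every sample. *Olig1* and *Olig2*, which define oligodendrocyte precursors, were at 0 in all 6 corneas, and the 6 markers summed to at most 2.25 FPKM in any sample. Of the 2 tested, *Gfap* was higher in the corneas than in pNC (means of 0.163, 0.857 and 0.740 FPKM over the 3 stages) and *Aldh1l1* lower, the latter losing its E14.5 call without any of 4 single samples and its E16.5 call without E10.5 replicate 2.

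Lens markers summed to 2.32 to 9.20 FPKM in pNC, 28.3 to 46.5 at E14.5 and 47.9 to 54.2 at E16.5, all 4 tested being higher, led by *Cryab*, which many tissues express, followed by *Bfsp1*, *Crybb1* and *Cryaa*. Of these, *Cryaa* lost its calls when single samples were left out, and *Crybb1* its E16.5 call without E16.5 replicate 1 (1.37). Without E14.5 replicate 1, 5 lens genes were tested. Against pNC, 3 of them were higher and 1 lower at E14.5, and 4 higher and 1 lower at E16.5. Leukocyte markers ran from 14.4 to 26.1 over all samples, with 0 called against pNC and only *Itgam* lower at E16.5 than at E14.5. Vascular endothelium markers ran from 101 to 164 in pNC, 46.5 to 86.4 at E14.5 and 22.7 to 35.7 at E16.5, with *Emcn*, *Cdh5*, *Pecam1* and *Tie1* lower at both stages, but without E14.5 replicate 1 only *Emcn* of the 5 was called lower at E14.5.

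**Figure D3:**
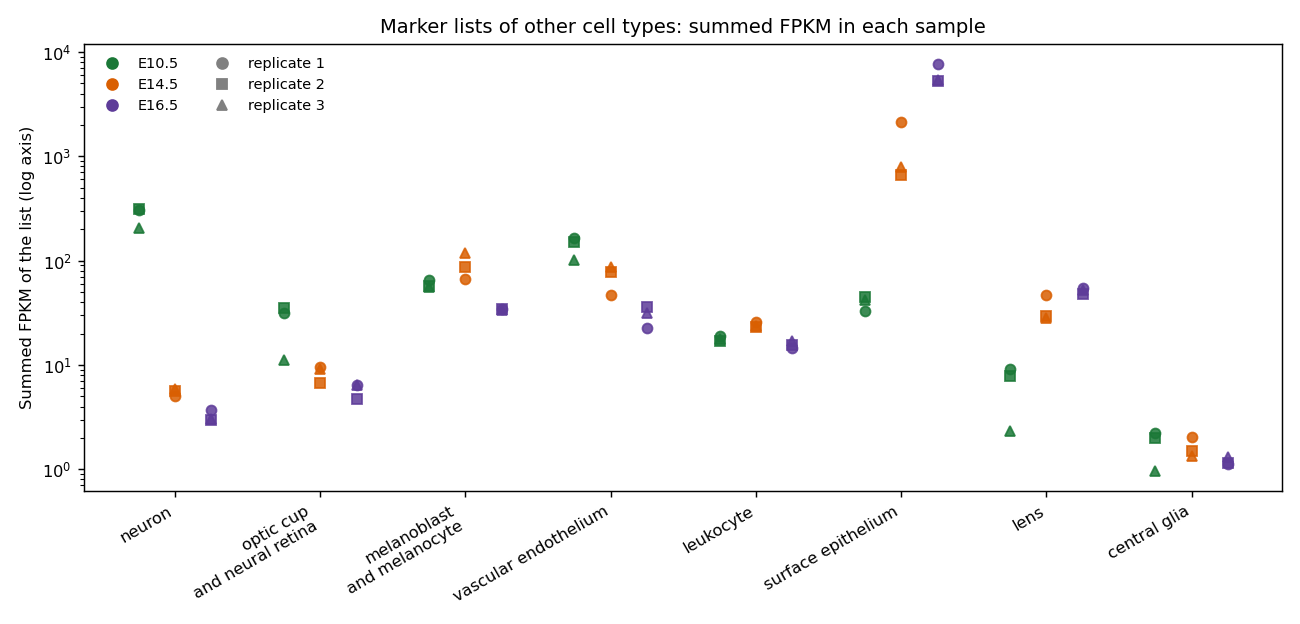
Summed FPKM of the marker lists of other cell types (x axis) in each of the 9 samples on a log axis (y axis), with colors for stages and shapes for replicates. Neuron markers fall from at least 206 in pNC to at most 5.89 in the corneas, and surface epithelium markers rise from at most 44.5 to at least 659.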

How the data were processed

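The data comprised 9 RNA-Seq samples, 3 at each of E10.5, E14.5 and E16.5, with stages and replicate numbers taken from the labels. Per the methods and the submitters' processing notes, the authors filtered reads, mapped them with Bowtie2 and with HISAT to GRCm38, and quantified genes with RSEM; versions and strandedness are not given in the sources used here. The authors deposited 2 values for each gene, the expected count estimated by RSEM without normalization and the FPKM scaled to transcript length and library size. Only genes above 0 are listed, so an absent gene was taken as 0. The study describes biological triplicates of pooled tissue; if pools shared embryos, p-values measure only the spread between these samples.

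Identifiers were matched to RefSeq symbols for 19312 of 19369 genes. Expected counts were rounded to whole numbers, filtered with filterByExpr by stage, scaled by TMM and fitted in 1 quasi-likelihood model of stage with edgeR 4.0.16 (limma 3.58.1, R 4.3.3), and adjusted with Benjamini-Hochberg over 14771 genes. The script was tested on simulated data. At 8745161 to 9069023 expected counts per sample, counting error is small except for genes with few counts. Alternatives were other scalings and filters, DESeq2 1.42.0, limma on log2(FPKM + 1) and log2(FPKM + 0.1), a recomputed NOISeq criterion (probability of at least 0.8), the 6 compared samples alone, leaving out each sample and a replicate block. Replicate numbers gave no sign of pairing: deviations from the stage means correlated at -0.0242 on average over 9 pairs with the same number and at 0.0144 over 18 pairs with different numbers. Single pairs ran from -0.322 to 0.294 and from -0.222 to 0.262. With 3 samples per stage, this check cannot exclude pairing.

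The members and gene lists were chosen with earlier results of these data known. All 8 members are named, with the genes of the neuregulin, neurotrophin and SoxE lists, up to 4 called genes of each other list by highest stage mean, and the 5 genes nearest to *Sox10*. *Krt14*, *Krt15* and *Krt12* also fell under this rule, with stage means at E16.5 of 491, 2110 and 745 FPKM. Some genes of these lists are counted with their list but not reported by name here.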

Additional observations from a re-analysis of the deposited data

How the results depend on the processing

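Over all alternatives, 397 recomputed log2 fold changes of members kept their direction and their side of the thresholds, 18 lost the call, 5 gained it and 0 reversed. The number of members called stayed within 1.5 times the reported one in 51 recomputations and not in 9. Between E14.5 and E10.5 it was 5, and 3 by the NOISeq criterion, where *Foxd3* (-1.79) and *Cdh19* (-1.52) were not called. Between E16.5 and E14.5 it was 2, and 1 when libraries were scaled by their totals, with limma on log2(FPKM + 1) or log2(FPKM + 0.1), and by the NOISeq criterion. Leaving out 1 sample at a time gave 1 to 2, and the gene lost in each of these cases was *Mbp*. Between E16.5 and E10.5, *Cdh19* lost its call with limma on log2(FPKM + 1) (-0.61), by the NOISeq criterion and without any of 3 single samples, and *Foxd3* with limma on log2(FPKM + 1) (-0.92) and by the NOISeq criterion. *Cdh19* also lost its call between E14.5 and E10.5 with limma on log2(FPKM + 1) (-0.75). The cause of these losses was not tested. The replicate block left the numbers of members called at 5, 7 and 2 and changed no call. Scaling by library totals moved the median of all genes by -0.15 at E16.5 against E10.5 and to -0.19 at E16.5 against E14.5, where the share of calls that were higher went from 53.3% to 39.9%, and no member changed direction. Depth limits *S100b*, which did not pass the count filter, and the corneal values of *Foxd3*, *Cdh19* and *Fabp7*, each at 28 expected counts or fewer per sample.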
